A study of Drosophila melanogaster with 6 samples.

Results

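Double H3.3 K27R males lack a normal lysine at position K27 in every copy of the histone variant H3.3, and RNA-seq of these males was compared with wild type. Males were collected as pharate adults, which have completed metamorphosis inside the pupal case, from 96 to 108 hours after puparium formation. Wild type males were yw. The K27R alleles were made by CRISPR/Cas9 editing of the H3.3 genes, and the replication-dependent H3 genes were left with their lysine. Double H3.3 K27R males carried yw with K27R alleles of both H3.3 genes, H3.3B on the X chromosome and both copies of H3.3A on chromosome 2. All males were therefore yw, and males with only the H3.3A mutation were not among the libraries. The remaining genotype of the series, yw with H3.3B K27R alone, is given only for reference and entered the fit to estimate the spread. Each genotype had 2 libraries, each from a pool of whole males, so that tissues were mixed and fewer cells of a type cannot be told apart from less RNA per cell. Genes were included when their RPKM (the reads on a gene divided by its length and by the reads counted in the library) averaged at least 1 over 4 libraries, 2 of wild type and 2 of the double mutant, which gave 11317 genes of the 15115 in the table and 4 of the 6 libraries.

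H3.3 is deposited into chromatin outside of DNA replication and is the main form of histone H3 that cells which no longer divide can add to their chromatin. Lysine K27 of H3 is methylated by Polycomb repressive complex 2 at silenced developmental genes, where Polycomb repressive complex 1 also binds, and is acetylated at active enhancers and promoters. An arginine in its place can carry neither mark. At this stage the adult cuticle is being completed, larval fat body cells still persist, and the accessory glands and testes are maturing.

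Between 1535941 and 2118264 reads per library were assigned to genes, and an RPKM of 1.42 to 1.95 corresponded to 3 reads on a gene of 1 kb. The labelled sex was checked with its markers. The male-specific dosage compensation RNA roX1 had an RPKM of 175 and 211 in wild type and 177 and 170.2 in the double mutant, and roX2 had 26 and 30.5 in wild type and 32.1 and 27.9 in the double mutant. The yolk protein gene Yp1, a marker of females, had 0 reads in all 4 libraries, Yp2 had 0.405 and 0.608 RPKM in wild type and 0 and 0.419 in the double mutant, and Yp3 had 1.69 and 0 in wild type and 2.01 and 1.75 in the double mutant. The mutated genes are still transcribed, since the mutation replaces a codon, so that their RNA level is no check of the labels. His3.3A had an RPKM of 40.8 and 60.8 in wild type and 52.5 and 58.5 in the double mutant, and His3.3B one of 101 and 111 in wild type and 121 and 114 in the double mutant. Neither passed the test (log2 differences of 0.15 and 0.15, adjusted p = 0.826 and 0.571, limma).

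Differences are given as the mean log2(RPKM + 1) of double H3.3 K27R minus that of wild type (log2 difference), which understates the change of genes with few reads. They were tested with limma over all tested genes, with Benjamini-Hochberg adjustment. The labels do not say whether the replicates came from separate cultures, so the p-values measure only the spread between these libraries. A gene was called differentially expressed where its adjusted p lay below 0.01 and its log2 difference was over 1 in size. By this rule 15 genes (0.133% of those tested) were differentially expressed, 7 higher (0.0619%) and 8 lower (0.0707%). Genes with an adjusted p below 0.05 are said to have risen or fallen: 49 rose (0.433%) and 46 fell (0.406%). Before adjustment, 1683 genes had a p below 0.05, 822 higher and 861 lower. The median log2 difference of all genes was 0.0001, with quartiles of -0.264 and 0.238, so that most genes lay close to their wild type level.

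**Figure D1:**
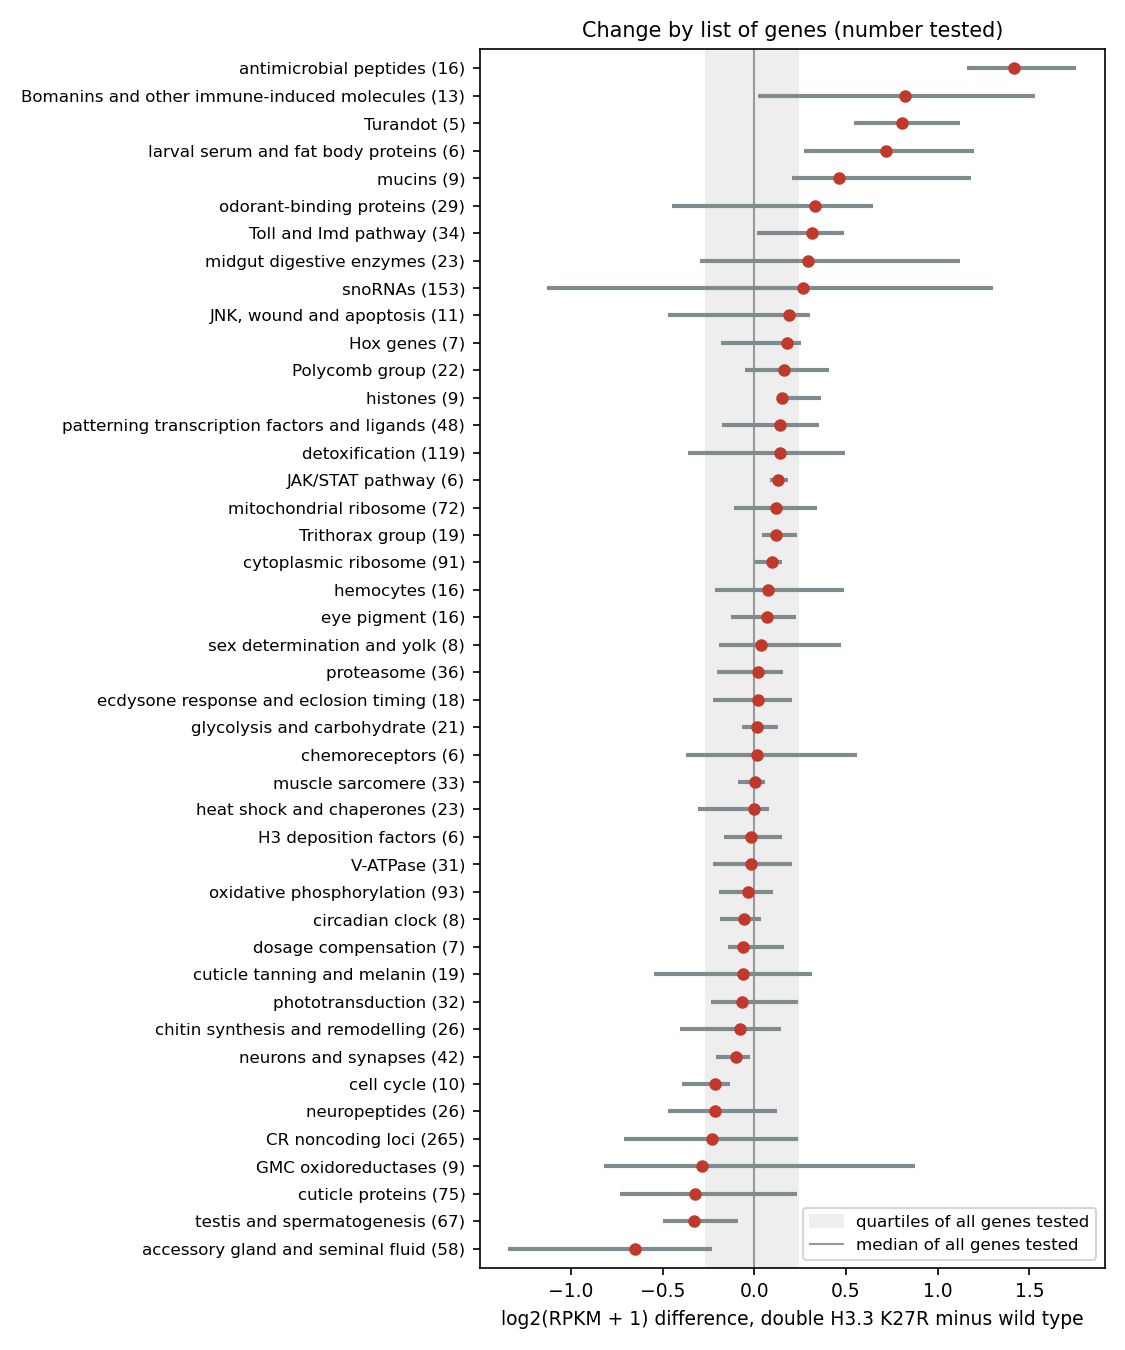
Median (points) and quartiles (bars) of the log2(RPKM + 1) difference between double H3.3 K27R and wild type for each list of at least 5 tested genes, with the number tested in parentheses and the quartiles of all genes tested shaded. Antimicrobial peptides had the highest median (1.41) and accessory gland and seminal fluid genes the lowest (-0.65), while muscle (0.01) and glycolysis genes (0.01) lay near 0.

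Of the genes that were differentially expressed, those that fell encode products of quite different tissues. Lsp1beta, a hexamerin storage protein of the larval fat body encoded at chr2L:898500-901316 (BDGP6), had an RPKM of 575 and 573 in wild type and 4.36 and 3.5 in double mutant males (log2 difference -6.87, SE 0.20, adjusted p = 6.04e-05, limma). CR40469, an X-linked long non-coding RNA, fell from 828 and 931 to 8.38 and 12.2 RPKM (log2 difference -6.31), and its level in H3.3B K27R males was 12.2 and 11.7. ATPsynG, listed in the table under an older symbol, encodes subunit g of the mitochondrial ATP synthase and fell from 843 and 636 to 182 and 189 RPKM (log2 difference -1.98, SE 0.14, adjusted p = 0.00639, limma). In each of these genes both double mutant libraries lay far below both wild type libraries. CG6639, now named SPH93 and encoding a serine protease homologue, fell from 37.6 and 44.6 to 5.27 and 6.97 RPKM, CG9029 from 449 and 421 to 37.3 and 67.7, and Acp32CD, an accessory gland protein, from 52.4 and 36.6 to 4.84 and 5.27. The log2 differences of these 3 genes were -2.57, -3.09 and -2.89. CG6639 lies in an intron of CG5050 and Acp32CD in one of Samuel, each on the opposite strand, and whether the counting used strand is not given in the sources used here. The last pair to fall, snoRNA:Psi18S-1389a and snoRNA:Tudor-SN-a, are described with the non-coding genes.

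Those that were higher include a Polycomb group gene, a neuronal capsid protein and secreted defence peptides. CG11370 had the largest increase, from 3.32 and 1.07 to 101 and 74.3 RPKM (log2 difference 4.87, SE 0.35, adjusted p = 0.00639, limma). CG16762 rose from 10.7 and 8.53 to 136 and 152 RPKM, a log2 difference of 3.78. CG16762 lies in an intron of Svil on the opposite strand, and the use of strand in the counting is not given. Arc1, which encodes a protein derived from a retrotransposon Gag that forms capsids and carries RNA across synapses, rose from 122 and 119 to 594 and 485 RPKM (log2 difference 2.15, SE 0.16, adjusted p = 0.00639, limma). The genotypes did not overlap for any of these 3 genes. Muc4B, an X-linked gene for a mucin-like protein, had 0 reads in wild type and 28 and 29 reads in the double mutant, so that it was at least 10.8-fold higher than 3 reads per library would be. Its RPKM of 10.4 and 11.7 in the double mutant was next to 10.4 and 9.69 in H3.3B K27R males, and both comparisons rest on the same wild type libraries. Mtk, TotA and Su(z)2 are described with their gene families.

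**Figure D2:**
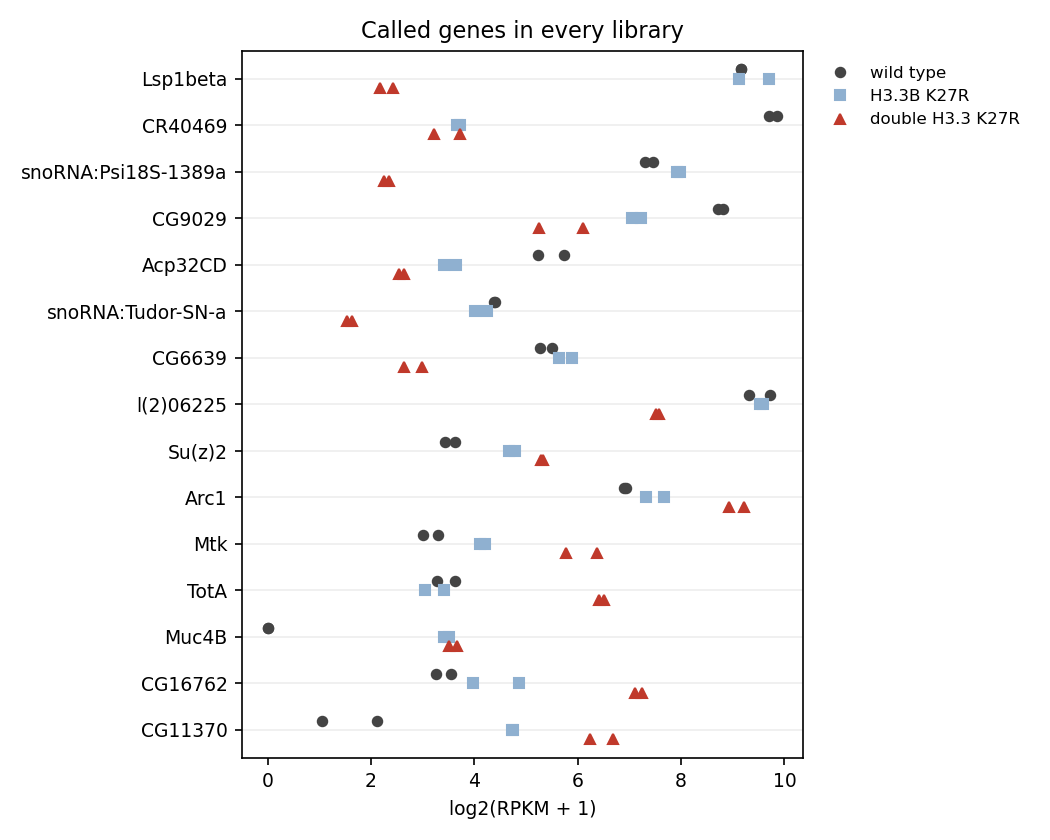
Expression as log2(RPKM + 1) in each library for the 15 genes that were differentially expressed, ordered by the log2 difference, with wild type as circles, H3.3B K27R as squares and double H3.3 K27R as triangles. For every gene both triangles lie on one side of both circles, whereas the squares lie near wild type for Lsp1beta and TotA and near the double mutant for CR40469 and Muc4B, and ATPsynG is drawn under its older symbol.

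The calls were few when a library was left out. Leaving out a wild type library left 1 gene differentially expressed for either replicate (snoRNA:Psi18S-1389a), leaving out either double mutant library left 2 (with CR40469), and leaving out either H3.3B K27R library left 4 (with Lsp1beta and CG16762). The corresponding numbers at an adjusted p below 0.05 were 4 and 5 without wild type replicates 1 and 2, 4 and 5 without double mutant replicates 1 and 2, and 32 and 33 without H3.3B K27R replicates 1 and 2. Those that remained of the 95 were Lsp1beta, CR40469 and snoRNA:Psi18S-1389a without any 1 of the 6 libraries, with CG11370 without either wild type library, ATPsynG without wild type replicate 2, and CG9029 without either double mutant library. Every other gene said below to have risen or fallen lost its call without any 1 of the wild type or double mutant libraries, when 1 library of that genotype was left and was assumed to vary like the others. Whole reads recovered from the RPKM values were also fitted with weights for precision (limma voom). By this fit 48 genes were differentially expressed and 190 had an adjusted p below 0.05, among them 81 of the 95 genes. Of the 15 differentially expressed genes 13 were kept, and Mtk and snoRNA:Tudor-SN-a were not. The 14 lost at 0.05 include GstE4, CG33774, CG43185, CG32640, CG43354, CG42782 and mir-962. They also include snoRNA:Tudor-SN-a, snoRNA:Psi28S-1192b, snoRNA:Me28S-C437 and snoRNA:bur-a.

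H3K27 is the substrate of the Polycomb pathway, and the genes of that pathway were examined as a list. Psc and Su(z)2, neighbouring genes on 2R that encode related RING finger proteins of Polycomb repressive complex 1, rose, and no other of the 22 Polycomb group genes did. Psc had an RPKM of 6.07 and 7.23 in wild type and 24.4 and 20.9 in the double mutant (log2 difference 1.63, SE 0.17, adjusted p = 0.0202, limma). Su(z)2 had one of 9.79 and 11.4 in wild type and 39.4 and 38.1 in the double mutant (log2 difference 1.78, SE 0.14, adjusted p = 0.00849, limma). Both double mutant libraries were above both wild type libraries for each gene, with H3.3B K27R males at 17.7 and 18.4 for Psc and 24.3 and 26.7 for Su(z)2. In the BDGP6 annotation Psc spans chr2R:12965997-12980994 and Su(z)2 chr2R:12996501-13007911, on opposite strands and 15.5 kb apart with no tested gene starting between them. E(z), the H3K27 methyltransferase, had 2.36 and 2.83 RPKM in wild type and 3.36 and 5.86 in the double mutant, which did not pass the test (adjusted p = 0.505, limma). Over the whole list the libraries did not overlap in 10 genes that were higher and 1 that was lower (45.5% and 4.5%, against 22.5% and 22.3% of all genes tested), and the median log2 difference was 0.16.

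Hox genes, which Polycomb group proteins are known to silence outside of their segments, had a median log2 difference of 0.18. None of the 7 Hox genes tested passed at an adjusted p below 0.05 in limma, 1 had an unadjusted p below 0.05 and none passed with limma voom. The libraries did not overlap for 4 that were higher and 2 that were lower (57.1% and 28.6%, against 22.5% and 22.3% of all genes). The sum of the RPKM of all Hox genes was 28.3 and 30 in wild type and 31.4 and 34 in double mutant males. Scr, which specifies the first thoracic segment and the male sex comb, had 1.65 and 2.58 RPKM in wild type and 4.31 and 3.7 in the double mutant, and abd-A, the most highly expressed, had 9.29 and 9.91 in wild type and 10.7 and 12.1 in the double mutant. Dfd, which acts in the head, went the other way with 1.83 and 1.89 against 0.872 and 0.713. The log2 differences of Scr and Dfd, the largest of the list, were 0.70 and -0.68. Both rest on few reads, with 12 and 25 in wild type and 33 and 26 in the double mutant for Scr. Dfd had 8 and 11 reads in wild type and 4 and 3 in the double mutant. Among 48 other patterning genes none passed in limma or in limma voom and 3 had an unadjusted p below 0.05. Their median log2 difference was 0.14. The libraries did not overlap for 19 that were higher and 9 that were lower (39.6% and 18.8%, against 22.5% and 22.3% of all genes). The wing selector gene vg, for example, had 2.41 and 2.42 RPKM in wild type and 4.29 and 5 in the double mutant, and the segmentation gene gsb-n had 4.5 and 2.11 in wild type and 0.535 and 2.04 in the double mutant. Trithorax group genes, which counter Polycomb silencing, had a median of 0.12 over 19 genes, and none passed in limma or limma voom, with 2 at an unadjusted p below 0.05.

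Antimicrobial peptide genes had the highest median difference of the lists plotted. These peptides are secreted by the fat body under control of the Toll and Imd pathways, and their summed RPKM was 176 and 243 in wild type and 678 and 799 in double mutant males. Both double mutant libraries were well above both wild type libraries, and H3.3B K27R libraries, at 262 and 199, were not. Of the 16 genes tested 2 rose and none fell. The median log2 difference was 1.41, and 12 genes (75%) had both double mutant libraries above both wild type libraries, against 22.5% of all genes. The filter averages both genotypes, so a gene that is low in wild type can be tested through the double mutant alone. AttB, AttC, CecA2, Drsl3, Def and DptB averaged below 1 RPKM in wild type and were tested this way. AttB, AttC, CecA2 and Drsl3 are among the 12, so the share and the median partly rest on members selected by their double mutant values. Mtk, which encodes metchnikowin, a peptide active against fungi and Gram-positive bacteria, rose from 7.03 and 8.81 to 82.5 and 53.4 RPKM (log2 difference 2.93, SE 0.23, adjusted p = 0.00782, limma). Its wild type values rest on 3 and 5 reads, with 37 and 22 reads in the double mutant. In limma voom Mtk had an adjusted p of 0.0193 and was not differentially expressed by the rule. Mtk lies in an intron of Stacl on the same strand, and whether reads of Stacl entered its count was not tested. Drs, which encodes the antifungal peptide drosomycin and is the most highly expressed of the list, rose from 79.6 and 106 to 264 and 225 (log2 difference 1.40, SE 0.20, adjusted p = 0.0438, limma).

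Other antimicrobial peptides were as far from wild type but more variable. Dro, the gene for drosocin, had an RPKM of 10.8 and 28.6 in wild type and 96.2 and 231 in the double mutant, a log2 difference of 3.01 with an adjusted p of 0.0798 in limma and 0.0311 in limma voom. Replicate 2 of Dro was well above replicate 1 in both wild type and the double mutant, and these genotypes did not overlap. AttC, an attacin directed at Gram-negative bacteria, had 0 and 1.57 RPKM in wild type and 13.3 and 7.96 in the double mutant (adjusted p = 0.114, limma). In reads this was 0 and 3 in wild type and 20 and 11 in the double mutant. CecA1 was lower in both double mutant libraries, at 5.34 and 5.35 RPKM in wild type and 3.39 and 3.69 in the double mutant. These values rest on only 3 and 4 reads in wild type and 2 and 2 in the double mutant (adjusted p = 0.81, limma).

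The Bomanins and other short immune-induced molecules, effectors of the Toll pathway, had a summed RPKM of 314 and 232 in wild type and 896 and 506 in the double mutant. None of the 13 tested passed in limma, and 1 passed in limma voom. At an unadjusted p below 0.05 there were 7 higher and 1 lower, against 822 and 861 of all 11317 genes. CG15065, IM23 and IM1 averaged below 1 RPKM in wild type and were tested through the double mutant. CG15065 had 0 reads in wild type and 1 and 1 in the double mutant. The counts therefore partly rest on members selected by their double mutant values. The gene that passed in limma voom was IM3, now named BomS3, with 88 and 42.5 RPKM in wild type and 408 and 184 in the double mutant (log2 difference 2.15, adjusted p = 0.114 in limma and 0.031 in limma voom). CG15068, another immune-induced gene, had 26.6 and 9.99 RPKM in wild type and 72.7 and 55.1 in the double mutant. The genotypes did not overlap for either gene, and replicate 1 was above replicate 2 in both genotypes.

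TotA, a secreted factor of the Turandot family that is released from the fat body under stress, rose from 8.68 and 11.4 to 84.6 and 90 RPKM (log2 difference 3.01, SE 0.20, adjusted p = 0.00536, limma). It was the 1 gene of 5 Turandot genes tested to pass. Its neighbour in the family TotB had 26.3 and 47.6 RPKM in wild type and 25 and 26 in the double mutant, lower in both libraries, and 82.4 and 73.5 in H3.3B K27R males. Genes of the Toll and Imd pathways themselves were nearer to wild type, with a median log2 difference of 0.31 over 34 genes. In 18 of them (52.9%) both double mutant libraries lay above both wild type libraries, and in 3 (8.8%) below, against 22.5% and 22.3% of all genes. None passed in limma, 4 higher and 1 lower had an unadjusted p below 0.05, and 1 passed in limma voom. That gene, PGRP-SC2, encodes a secreted amidase that degrades peptidoglycan and had 5.66 and 12.8 RPKM in wild type and 36.6 and 45.8 in the double mutant (adjusted p = 0.0748 in limma and 0.0311 in limma voom). Rel, the NF-kappaB factor of the Imd pathway, had 17.4 and 17.7 in wild type and 29.2 and 23.6 in the double mutant. The gene nec, which encodes a serpin that restrains Toll signalling and was the most highly expressed of the list, had 115 and 74 in wild type and 73.2 and 121 in the double mutant, which overlapped.

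**Figure D3:**
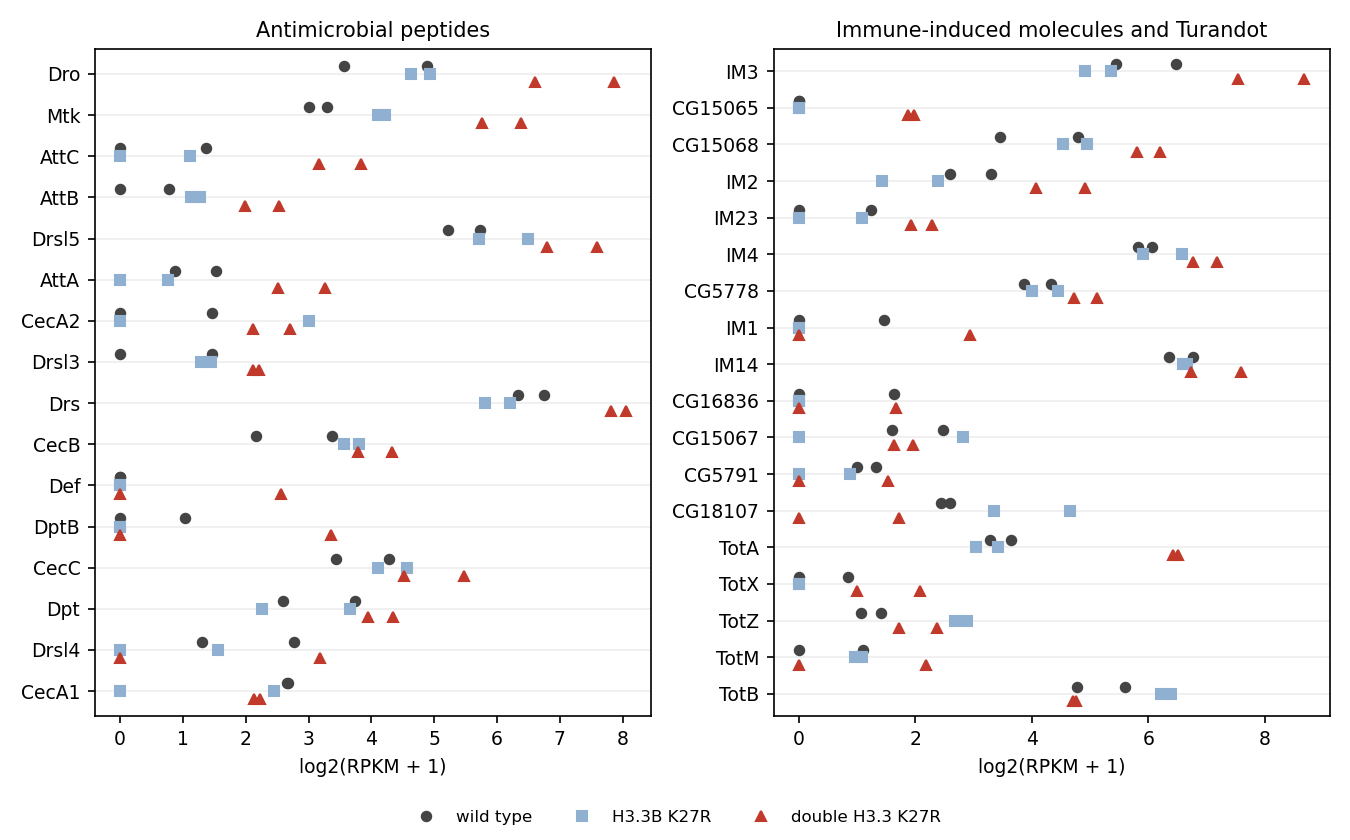
Expression as log2(RPKM + 1) in each library for tested antimicrobial peptide genes (left) and for Bomanins, other immune-induced molecules and Turandot genes (right), ordered by the log2 difference within each family. Triangles (double H3.3 K27R) lie to the right of circles (wild type) for 12 of 16 antimicrobial peptides, whose summed RPKM was 176 and 243 in wild type and 678 and 799 in the double mutant. Squares are H3.3B K27R.

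Fat body proteins did not fall together. Besides Lsp1beta, the other larval serum proteins were higher in both double mutant libraries than in both wild type libraries. Lsp1gamma had an RPKM of 318 and 332 in wild type and 671 and 1042 in double mutant males (log2 difference 1.36, adjusted p = 0.0579 in limma and 0.00686 in limma voom). Lsp1alpha had 79.5 and 74.7 in wild type and 148 and 256 in the double mutant, and Lsp2, the most abundant, had 1370.4 and 1781 in wild type and 2654 and 2832 in the double mutant (adjusted p = 0.0984 and 0.106, limma). Fbp1, a receptor through which the fat body takes up hexamerins, had 503 and 511 RPKM in wild type and 564 and 1078 in the double mutant, whereas Fbp2 overlapped between genotypes with 769 and 865 in wild type and 761 and 1085 in the double mutant. Lsp1beta alone of the Lsp1 subunits lay below wild type, and it was at 832 and 557 RPKM in H3.3B K27R males. Lsp1beta, Lsp1alpha and Lsp1gamma are similar genes on 3 different chromosomes, and reads that match more than 1 of them could have been assigned unevenly.

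Some genes of the male reproductive tract fell. Of 58 tested genes for accessory gland and seminal fluid proteins, which are transferred to the female at mating, 3 fell and none rose. Their median log2 difference was -0.65, and both double mutant libraries lay below both wild type libraries for 22 genes (37.9%, against 22.3% of all genes). Besides Acp32CD, lectin-46Cb, a C-type lectin that takes part in storing sperm and sex peptide in the mated female, fell from 9.81 and 16.7 to 0.811 and 0.884 RPKM, a ratio of 16.2-fold (95% interval 6.08 to 61.1) in reads. CG17575, a cysteine-rich secreted protein of the same sperm storage network, fell from 33.5 and 37 to 6.24 and 9.52 RPKM (log2 difference -2.05, SE 0.22, adjusted p = 0.0205, limma). The paralog lectin-46Ca had 15.9 and 17.5 RPKM in wild type and 0.541 and 3.54 in the double mutant (adjusted p = 0.0811 in limma and 0.0301 in limma voom), and Sfp26Ad, a seminal fluid protein, had 49.5 and 41.3 in wild type and 1.05 and 7.98 in the double mutant (adjusted p = 0.0811 in limma and 0.0222 in limma voom).

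The most abundant seminal fluid transcript, Mst57Db, overlapped between the genotypes. It had an RPKM of 2666 and 1145 in wild type and 975 and 2031 in the double mutant, and the sum over the list was 9214 and 4344 in wild type and 3430.1 and 6264 in the double mutant. Replicate 1 of wild type and replicate 2 of the double mutant were the high ones in both cases, and the genotypes overlapped.

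Testis genes differed by less. Among 67 genes of spermatogenesis tested, 40 (59.7%) were lower in both double mutant libraries than in both wild type libraries and 3 (4.5%) were higher, against 22.3% and 22.5% of all genes. The median log2 difference was -0.33, and the summed RPKM was 5188 and 5600.2 in wild type, 4251 and 3994 in the double mutant and 4043 and 4104 in H3.3B K27R males. None passed in limma, 23 lower and 1 higher genes had an unadjusted p below 0.05, and 4 lower genes passed in limma voom. One of these, dj, encodes a protein of the sperm tail and had 126 and 151 RPKM in wild type and 83 and 88.8 in the double mutant (log2 difference -0.68, adjusted p = 0.0811 in limma and 0.0279 in limma voom). Mst98Cb, a sperm tail protein and the most highly expressed gene of the list, had 416 and 424 in wild type and 369 and 317 in the double mutant. Prosbeta2R1, a testis-specific proteasome subunit, had 9.78 and 10.1 RPKM in wild type and 4.07 and 5.07 in the double mutant, and janB had 55.2 and 63.9 and 41 and 24. Mst85C was higher in both double mutant libraries, at 8.58 and 10.7 against 4.29 and 6.13 in wild type.

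**Figure D4:**
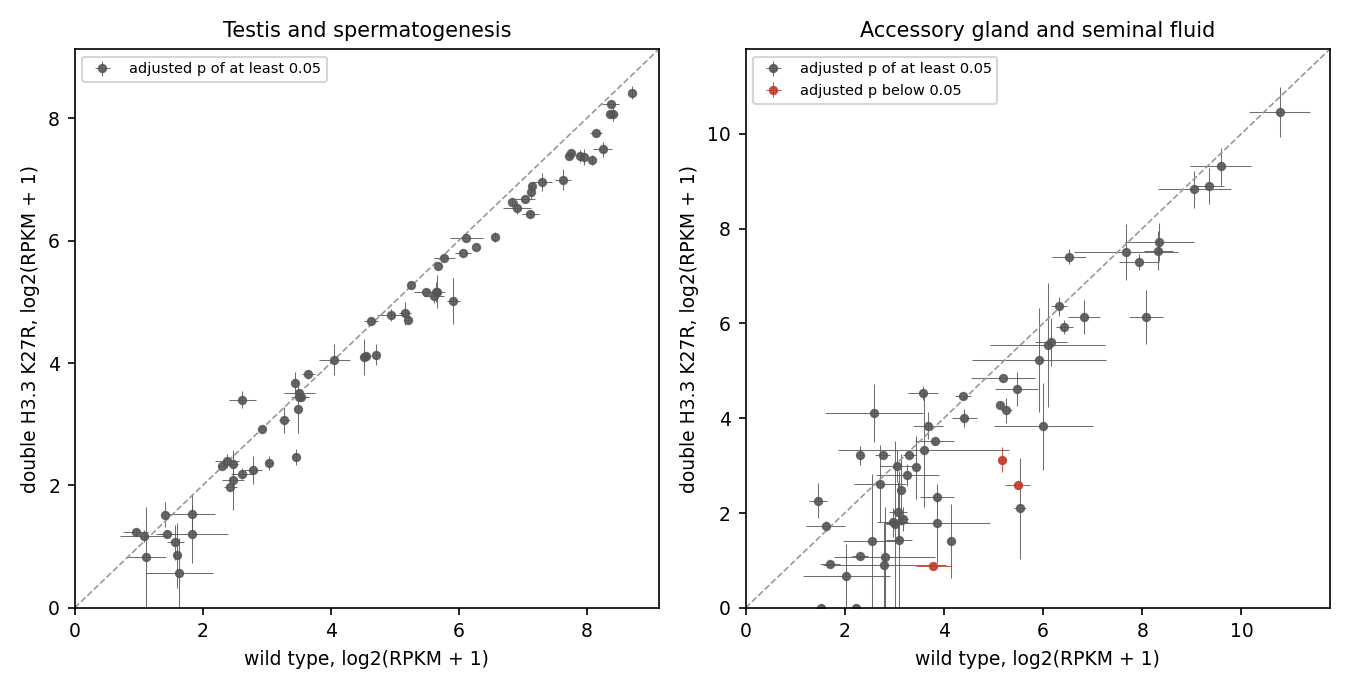
Mean log2(RPKM + 1) of wild type (x axis) and double H3.3 K27R (y axis) for tested genes of spermatogenesis (left) and of the accessory gland and seminal fluid (right), with bars from the lower to the higher of the 2 libraries around each mean and a dashed line of equality. Most testis genes lie slightly below the line (median -0.33) and seminal fluid genes spread more widely around it (median -0.65), with the 3 genes at an adjusted p below 0.05 in red.

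The 42 genes of neurons and synapses tested had a median log2 difference of -0.10 and a range from -0.54 to 0.39, and none passed in limma, with 1 at an unadjusted p below 0.05 and none in limma voom. Of these genes 12 (28.6%) were lower in both double mutant libraries and 0 were higher, against 22.3% and 22.5% of all genes, and their summed RPKM was 1109 and 1211 in wild type and 1097 and 1048 in the double mutant. Arc1 was the only gene of 4 that respond to neuronal activity to pass. Its paralog Arc2 had 2.85 and 0.535 RPKM in wild type and 4.74 and 5.17 in the double mutant (adjusted p = 0.295, limma), and Hr38, an activity-regulated nuclear receptor, had 3.83 and 3.55 in wild type and 2.4 and 2.54 in the double mutant. Nplp4, a precursor of neuropeptide-like peptides, rose from 139.6 and 86.5 to 325 and 331 RPKM (log2 difference 1.57, SE 0.22, adjusted p = 0.0407, limma), and it was the 1 of 26 neuropeptide genes to pass. Lk, which encodes leucokinin, had 4.02 and 5.28 RPKM in wild type and 0 in both double mutant libraries (adjusted p = 0.062, limma). The transmembrane protein gene kek2 fell from 10.2 and 14.4 to 1.92 and 3.28 RPKM. In the eye, Pdh, a dehydrogenase of the visual pigment cycle, fell from 85.1 and 121 to 27.2 and 36.5 (log2 difference -1.66, SE 0.21, adjusted p = 0.0329, limma), while the main rhodopsin gene ninaE had 808 and 859 in wild type and 1008 and 1027 in the double mutant.

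Detoxification genes moved in both directions. Of 119 cytochrome P450, glutathione S-transferase, glycosyltransferase and cytochrome b5 genes tested 5 rose and 4 fell, and the median log2 difference was 0.14. Of all genes tested, 0.433% rose and 0.406% fell. Both double mutant libraries were higher for 31 genes of the list (26.1%) and lower for 20 (16.8%), against 22.5% and 22.3% of all genes. GstE1 rose from 46.9 and 40.9 to 118 and 103 RPKM (log2 difference 1.31, SE 0.15, adjusted p = 0.0254, limma). GstE4, which lies 4.02 kb away in the same cluster on 2R, fell from 13 and 6.33 to 0 and 0.793. This was a ratio of 24.2-fold (95% interval 4.01 to 991) in reads. GstE4 had an adjusted p of 0.0485 in limma and 0.0935 in limma voom, where it did not pass. The P450 gene Cyp6g1, known for its part in insecticide resistance, fell from 42.9 and 31.1 to 8.97 and 8.51 RPKM, and Cyp6a2, another such gene, from 18.8 and 10.4 to 0.357 and 1.17, a ratio of 18.8-fold (95% interval 7.09 to 70.6) in reads. Cyp4e2 fell from 33.7 and 33 to 11 and 15.6. Cyt-b5-r rose from 31.5 and 41.8 to 90.6 and 95.8, Cyp6a17 from 8.95 and 7.94 to 27.8 and 22.8, Cyp309a2 from 7.16 and 8.19 to 24.9 and 21.5, and Cyp6w1 from 3.47 and 2.32 to 12.1 and 11.6. All of these genes lie on chromosome 2, which held 38.5% of all genes tested. The share of the detoxification list on chromosome 2 was not determined, so no placement can be read from this. The genotypes did not overlap in any of these genes, which says little of genes chosen by their adjusted p. The GstE and Cyp6a genes are clusters of similar sequence, so that the split of reads within each is uncertain. The most highly expressed of the list, GstS1, had 1708 and 1638 RPKM in wild type and 1630.0 and 1763 in the double mutant, which overlapped.

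Energy metabolism was close to wild type apart from single genes. The 93 nuclear genes of oxidative phosphorylation had a median log2 difference of -0.04, and beside ATPsynG, which fell, CG3214, now ND-B17.2 of respiratory complex I, rose from 257 and 202 to 427 and 437 RPKM (log2 difference 0.92, SE 0.14, adjusted p = 0.0468, limma). The paralog of ATPsynG, CG7211, was expressed at 10.5 and 5.91 RPKM in wild type and 9.98 and 1.36 in the double mutant, which overlapped. Pdk, the kinase that inhibits pyruvate dehydrogenase, fell from 124 and 105 to 37.2 and 50.8 RPKM (log2 difference -1.37, SE 0.17, adjusted p = 0.0329, limma). It was the 1 of 21 genes of carbohydrate metabolism to pass. Pfk, which encodes phosphofructokinase, had 110.1 and 109 RPKM in wild type and 74.7 and 67.2 in the double mutant (adjusted p = 0.0748 in limma and 0.014 in limma voom). Tango11, a factor of mitochondrial and peroxisomal fission, rose from 36.2 and 36.7 to 62.1 and 59.7, mRpL27, a mitochondrial ribosomal protein, rose from 30.2 and 26.3 to 84.7 and 85.7, and Grx-1, a glutaredoxin, fell from 91.1 and 81.2 to 34.6 and 36.6. The genotypes did not overlap for any of these 3 genes.

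Cuticle protein genes differed as much between replicates as between genotypes. Their summed RPKM was 17192 and 26000.0 in wild type and 19658 and 12112 in double mutant males, so that wild type replicate 2 was the highest and double mutant replicate 2 the lowest, with the others between. Of 75 tested 1 rose and 1 fell, and 26 (34.7%) were lower in both double mutant libraries and 10 (13.3%) higher, against 22.3% and 22.5% of all genes. TwdlD, a Tweedle family cuticle protein, rose from 1.3 and 1.96 to 10.5 and 12.8 RPKM, and Cpr92F, a chitin-binding cuticle protein, fell from 268 and 335 to 138 and 98 (log2 difference -1.35, SE 0.19, adjusted p = 0.0407, limma). Cpr30B shows the spread, with 163 and 700.5 RPKM in wild type and 109 and 32 in the double mutant (adjusted p = 0.234, limma).

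Among genes of cuticle tanning, yellow-e fell from 45.7 and 43.8 to 12 and 18.4 RPKM and yellow-c from 66.8 and 62 to 34.5 and 25.6. No other of the 19 genes passed, and ple, the tyrosine hydroxylase that starts the pathway, had 2093 and 1141 in wild type and 1162 and 1870.3 in the double mutant. Gld, a glucose dehydrogenase needed for emergence from the pupal case, fell from 16.9 and 20.9 to 5.77 and 6.07 (log2 difference -1.52, SE 0.21, adjusted p = 0.0399, limma). CG9509, an X-linked enzyme of the same family, rose from 11.3 and 12.3 to 31.5 and 38.7, and was at 35.3 and 33.9 in H3.3B K27R males. Genes of the ecdysone response and of eclosion timing, 18 in all, had a median log2 difference of 0.02 and none passed in limma or limma voom, with 1 higher and 1 lower at an unadjusted p below 0.05. The transcription factor gene ftz-f1 had 132 and 137 RPKM in wild type and 109 and 163 in the double mutant.

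Muscle genes differed little. Their summed RPKM was 45913 and 43882 in wild type and 43529 and 43754 in the double mutant, the median log2 difference of 33 genes was 0.01, and the largest were 0.41 for TpnC25D and -0.34 for Mlp60A. Cytoplasmic ribosomal protein genes had a median of 0.09 over 91 genes, of which 45 (49.5%) were higher in both double mutant libraries and 10 (11%) lower, against 22.5% and 22.3% of all genes. None passed in limma for either list, while at an unadjusted p below 0.05 there were 1 higher and 2 lower for muscle and 4 and 3 for the ribosome. In limma voom 1 muscle gene (Act57B, lower), 1 ribosomal protein gene that was higher (RpL31) and 1 that was lower (RpLP2) passed.

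Of 23 chaperone genes 3 passed, against 0.839% of all genes tested. HIP, 1 of the 3, was added to the list after values were seen, so this count is no measure of chaperones as a group. Hsp23, a small heat shock protein, rose from 110.2 and 126 to 234 and 297 RPKM (log2 difference 1.15, SE 0.16, adjusted p = 0.0447, limma). HIP-R fell from 12.9 and 13.7 to 2.24 and 3.05, and its neighbour HIP, 6.67 kb away on the X chromosome, rose from 8.25 and 8.5 to 20.3 and 18.7. HIP and HIP-R encode nearly the same Hsc70-interacting protein, so that the split of reads between them is uncertain. The heat-inducible Hsp68 had 20.8 and 25 RPKM in wild type and 19.6 and 13.7 in the double mutant, and Hsc70-4, the most highly expressed, had 537 and 500.1 in wild type and 563 and 529.8 in the double mutant. The median log2 difference of the list was -0.00.

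Non-coding genes included some of the largest differences, mostly from few reads. snoRNA:Psi18S-1389a, a guide for pseudouridylation of 18S rRNA at chr2R:21333934-21334092 in an intron of dom (BDGP6), had 44 and 53 reads in wild type and 1 and 1 in the double mutant, a ratio of 42-fold (95% interval 11.3 to 351). In H3.3B K27R males its RPKM was 243 and 251, above 174 and 157 in wild type, and the host gene dom had 13 and 14.2 in wild type and 13.8 and 12.8 in the double mutant. snoRNA:Tudor-SN-a, in an intron of Tudor-SN on 3L, had 10 and 13 reads in wild type and 1 and 1 in the double mutant. This was a ratio of 9.95-fold (95% interval 2.46 to 87.1). snoRNA:Tudor-SN-a did not pass in limma voom (adjusted p = 0.0743). Its host gene overlapped between the genotypes, with 22.5 and 28.1 RPKM in wild type and 30.3 and 26 in the double mutant. Of 153 snoRNAs tested 1 rose and 4 fell, against 0.433% and 0.406% of all genes. All but snoRNA:Psi18S-1389a of those that rose or fell had at most 13 reads in any of the 4 libraries. Both double mutant libraries were higher for 32 snoRNAs (20.9%) and lower for 20 (13.1%), against 22.5% and 22.3% of all genes. snoRNA:Psi28S-1192b, an X-linked gene, had 3 and 7 reads in wild type and none in the double mutant or in H3.3B K27R males, and snoRNA:Me28S-C437 and snoRNA:bur-a had at most 3 reads in any of the 4 libraries. CR43157, an X-linked non-coding RNA, fell from 141 and 133 to 49.7 and 44.6 RPKM, with 31.9 and 51.9 in H3.3B K27R males. With CR40469 it made up the 2 of 265 CR loci that fell, against 0.406% of all genes, and none rose. Of the CR loci 38 (14.3%) were higher in both double mutant libraries and 77 (29.1%) lower, against 22.5% and 22.3% of all genes. Their median log2 difference was -0.23. Intervals on ratios of reads cover counting error only. Of all 95 genes that rose or fell, 15 had at most 20 reads in each of the 4 libraries, and 5 of these passed in limma voom.

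Genes outside every list made up 52 of the 95, 29 higher and 23 lower. CG13905 rose from 3 and 2 to 31 and 29 reads, a ratio of 13.9-fold (95% interval 5.62 to 44.3), and the non-coding gene CG32368 from 4.6 and 5.76 to 61.2 and 34.9 RPKM. CG34138 rose from 2.52 and 5.68 to 32 and 24.4 and CG14711 from 4.76 and 8.23 to 31.7 and 25.7. With 0 reads in wild type, the X-linked genes CG12498 and CG32640 had 8 and 11 and 9 and 9 reads in the double mutant, at least 3.62-fold and 3.4-fold higher than 3 reads per library, and CG33458 on 2R had 12 and 8 (3.75-fold). X-linked CG32564 rose from 0.434 and 1.63 to 8.26 and 8.55 RPKM, with 9.02 and 7.33 in H3.3B K27R males. The genes CG43354, CG42782 and mir-962 fell from at most 2 reads in a library to none. Tsf1, a transferrin of the hemolymph, rose from 52 and 61 to 107 and 120.1 RPKM, and Npc2a, a carrier of sterols, from 39.6 and 45.7 to 80.8 and 84. Spn88Eb, a serpin, rose from 33.4 and 35 to 78.9 and 80.5 (log2 difference 1.20, SE 0.12, adjusted p = 0.0153, limma). The genotypes did not overlap for any of these 3 genes. CG5402 fell from 50.1 and 39.9 to 4.86 and 10.6 RPKM. CG33774 fell from 11 and 21 to 1 and 1 reads, a ratio of 13.8-fold (95% interval 3.53 to 119), and did not pass in limma voom (adjusted p = 0.0689).

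The genes that rose or fell were unevenly placed along the genome. Chromosome 2, which carries the mutated H3.3A gene, held 56 of the 95 (58.9%) but 38.5% of the genes tested, and chromosome 3 held 22 (23.2%) with 43.7% of those tested. By arm, 25 genes on 2L (1.21% of those tested there), 31 on 2R (1.35%), 16 on the X chromosome (0.904%), 9 on 3L (0.412%) and 13 on 3R (0.471%) rose or fell, against 0.839% of all genes. In limma voom the counts were 104 on chromosome 2 and 60 on chromosome 3. The share of genes whose libraries did not overlap, in either direction, was more even. It was 47.9% on chromosome 2, 42.4% on chromosome 3 and 44.2% on the X chromosome, against 44.8% of all genes. Both mutated chromosomes were carried by every double mutant library, so that the K27R alleles and sequence linked to them cannot be told apart here. On 2L most fell (16 against 9 that rose), and on the X chromosome most rose (11 against 5).

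**Figure D5:**
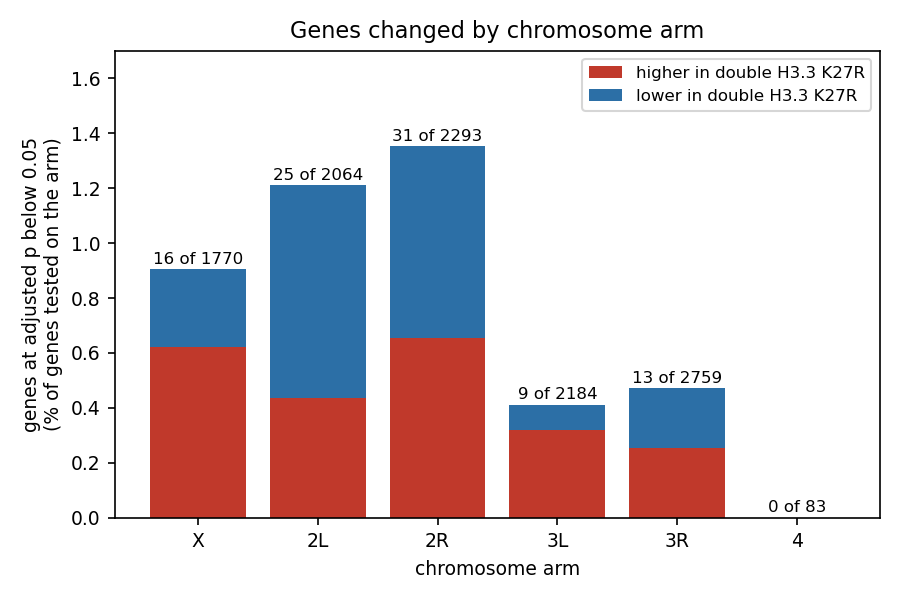
Percent of tested genes on each chromosome arm with an adjusted p below 0.05 in double H3.3 K27R against wild type, split into higher (red) and lower (blue), with the counts above the bars. Both arms of chromosome 2 (1.21% and 1.35%) stand above both arms of chromosome 3 (0.412% and 0.471%), with the X chromosome between them (0.904%).

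Several of these genes were neighbours. CG43185 and CG9029, whose annotated starts and ends leave 0.51 kb between them at chr2L:5884888-5885491 and chr2L:5886002-5886609 (BDGP6), both fell, CG43185 from 24.4 and 23.4 to 5.15 and 4.21 RPKM. Cyp309a2 and CG3214, 6.16 kb apart on 2L, both rose, and Cyp309a1 of the same P450 family had 3.78 and 8.27 RPKM in wild type and 22.1 and 20.9 in the double mutant (adjusted p = 0.0811 in limma and 0.0142 in limma voom). Cpr92F and CG4000, 3.4 kb apart on 3R, both fell, CG4000 from 26.4 and 24.5 to 5.97 and 8.46. Neighbours also went in opposite directions, as GstE1 with GstE4 and HIP with HIP-R did.

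In both double mutant libraries the X chromosome was slightly higher relative to the autosomes than in wild type. Each gene was taken as its log2 ratio to the wild type mean, and the median over 9300 autosomal genes was subtracted from that over 1770 genes of the X chromosome. This gave 0.0708 and 0.0515 in the double mutant libraries, and 0.002 and -0.002 in wild type. The difference was 0.0612 on the log2 scale (1.04-fold), and the SD between libraries was 0.0028 in wild type and 0.0136 in the double mutant (n = 2 each). The wild type values mirror each other because both libraries were set against their own mean. By an exact permutation test over libraries, two-sided, p was 0.333, which is the smallest that 2 libraries against 2 allow. The wild type reference was kept in every permutation, so the test cannot decide whether the shift exceeds the spread between libraries.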

How the data were processed

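RNA was extracted from pools of whole pharate adult males, and libraries were made with the NuGen Ovation RNA-seq kit after ERCC spike-ins were added. The submitters' processing notes name STAR 2.5.2b, SAMtools 1.3.1, Subread 1.28.1 and DESeq2 1.18.1. The authors aligned reads to a modified dm3 genome with a single copy of each replication-dependent histone gene. The authors deposited RPKM values (reads per kilobase, scaled to the reads counted in the library), which were made with a custom R script. A table of the authors' own DESeq2 comparisons was not used. Whole reads were recovered from the RPKM values, and all 73342 values above 0 (100%) lay within 0.01 of a whole read.

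Values were analysed as log2(RPKM + 1), with a pseudocount of 1, for genes averaging at least 1 RPKM, with limma 3.58.1 in R 4.3.3 (lmFit, eBayes with a trend, 3 genotypes in one fit, Benjamini-Hochberg adjustment over all genes tested). The scripts were tested on simulated data. Ratios of reads carry 95% intervals, and a group with 0 reads was set to 3 reads per library. Alternatives were a pseudocount of 0.1, no filter, a filter of 5, quantile normalization, median centring, the 4 libraries alone, a replicate block, limma voom on recovered reads with TMM scaling, no trend, and each library left out. Chromosome arms and current symbols came from BDGP6, matched to 11702 genes by symbol and to 3165 by an older symbol, with 248 not matched.

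The members and the 46 gene lists were chosen with earlier results of these data known. After values were seen, Acp65Aa was moved to the cuticle proteins, the Mst57D genes were moved to the accessory gland list, CG9029 and CG16704 were taken out of it, HIP was added to the chaperones, and names were also matched by current symbol. Genes were named by a rule: both H3.3 genes, every gene differentially expressed, the 15 largest increases and 15 largest decreases at an adjusted p below 0.05 without overlap, and from each list its members at an adjusted p below 0.05 with up to 3 large changes and the most highly expressed. Other genes named, such as Tsf1, Npc2a, Spn88Eb, CG14711, CG5402, kek2, Tango11, Grx-1, ple, Rel and E(z), were chosen after their values were seen.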

Additional observations from a re-analysis of the deposited data

How the results depend on the processing

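With 2 libraries in each genotype and 1535941 to 2118264 reads, genes with few reads were measured poorly and the numbers of calls moved with the estimate of the spread. The number of differentially expressed genes (15) was 14 to 16, and that at an adjusted p below 0.05 (95) was 78 to 93, with a pseudocount of 0.1, no filter, a filter of 5, quantile normalization or median centring. Median centring gave 38 higher and 40 lower. Fitting only the 4 libraries gave 4 and 25, leaving out the trend gave 4 and 32, and limma voom gave 48 and 190. Leaving out 1 library gave 1 to 4 and 4 to 33. For the X chromosome minus the autosomes (0.0612), the mean over genes gave 0.0809 and leaving out 1 library 0.0515 to 0.0711. A fit with the replicate number as block left 3 differentially expressed genes and 21 at an adjusted p below 0.05. Replicate 1 minus replicate 2 correlated over genes at -0.206 between wild type and the double mutant. The correlation was 0.019 between wild type and H3.3B K27R and 0.008 between the mutants. The labels do not say what libraries with the same number share, and this was not tested. A block with the double mutant numbers swapped, added after the data were seen, gave 3 and 60. Of the named genes under these alternatives, 764 values kept their direction and their side of the threshold, 822 lost significance and 4 gained it. The log2 difference of His3.3A ranged from -0.131 to 0.433 when 1 library was left out, and turned negative without wild type replicate 1 (adjusted p = 0.869, limma). Of the list medians under the alternatives, 325 were counted as the same and 87 as moved. Quantile normalization turned the small medians of the tanning (0.019), V-ATPase (0.032) and chaperone lists (0.006). The causes were not tested.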

Other observations

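Digestive and chemosensory genes added single members. The midgut list, with digestive enzymes such as lysozymes and trypsins, had a median log2 difference of 0.29 over 23 genes. Of these, 9 (39.1%) were higher in both double mutant libraries and 1 (4.3%) lower, against 22.5% and 22.3% of all genes. None passed in limma and 1 passed in limma voom. At an unadjusted p below 0.05 there were 7 higher and 0 lower, against 822 and 861 of all 11317 genes. The filter averages both genotypes, so members with few wild type reads, such as LysP, can be tested through the double mutant. The shares and the median may partly rest on such members. LysP, a lysozyme also expressed in salivary glands, had 1 and 0 reads in wild type and 18 and 28 in the double mutant (adjusted p = 0.066 in limma and 0.0475 in limma voom). Obp56d, an odorant-binding protein, fell from 42.7 and 55.3 to 16.2 and 22.1 RPKM (log2 difference -1.31, SE 0.20, adjusted p = 0.0493, limma), whereas the median of the 29 odorant-binding proteins was 0.33.

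Of 11 genes of JNK signalling, wounding and apoptosis, 6 (54.5%) were higher in both double mutant libraries and 2 (18.2%) lower, against 22.5% and 22.3% of all genes, with a median log2 difference of 0.19. None passed in limma, 3 higher and 2 lower had an unadjusted p below 0.05, and 1 passed in limma voom. Of the lower ones, the apoptosis inducer rpr had 16 and 20.4 RPKM in wild type, 7.29 and 3.61 in double H3.3 K27R males and 19.7 and 20.1 in H3.3B K27R males (adjusted p = 0.0811, limma). Thor, a translational repressor of the insulin and TOR pathway, had 214 and 220.1 RPKM in wild type and 370.4 and 316 in the double mutant (log2 difference 0.65, adjusted p = 0.0811 in limma and 0.0222 in limma voom). Of the 46 lists 26 had no gene at an adjusted p below 0.05, and 15 of these had a median log2 difference within 0.1 of 0.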
